A study of Mus musculus with 16 samples.

Results

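The genes described here are 41 genes of stellate cell activation and matrix remodelling, measured in the whole-liver RNA of 16 mice. They were chosen by name, as genes of matrix proteins other than collagens, of enzymes that cross-link or cut the matrix and of stellate cell markers, and the rule uses no measured value. All 41 were found among the 25719 genes measured. The study fed male mice, 8 to 12 weeks old at the start, either normal chow (NCD) or a steatosis-steatohepatitis diet (SSD) rich in fat, fructose and cholesterol, and liver RNA was taken after 3 weeks. The comparisons ask how expression in the liver answers the diet and how it differs without NKG2D, an activating receptor of NK cells and some T cells that the gene Klrk1 encodes. There were 4 WT mice (C57BL6J) on NCD, 5 WT mice on SSD, 4 Klrk1-/- mice on NCD and 3 Klrk1-/- mice on SSD, with 1 library per mouse. The deficiency is not limited to 1 cell type, and the sources used here do not say whether WT and Klrk1-/- mice of this experiment were littermates.

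Stellate cells lie between the liver sinusoids and the hepatocytes and store vitamin A as retinyl esters. When the liver is injured they can lose this store, become contractile and secrete collagens and other matrix proteins, a change driven by signals such as TGF-beta and PDGF. New matrix is hydroxylated, trimmed and cross-linked by enzymes, and is cut again by metalloproteinases (MMPs), which tissue inhibitors of metalloproteinases (TIMPs) hold in check. In liver fibrosis more matrix is laid down than is removed.

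Expression is given as the normalized count that the authors deposited, the read count of a gene divided by 1 factor per mouse. Values of single mice are listed in the order of the mouse numbers, which are 1, 2, 3 and 5 for WT mice on NCD and run from 1 upwards in the other groups. The recovered reads ranged from 19892025 to 28936707 per mouse. Differences are log2 fold changes of the normalized count + 1, given with the standard error (SE) of the fit and tested with limma over all genes with a mean of at least 10 in the mice compared, and a gene is called higher or lower where its adjusted p was under 0.05. Klrk1 itself ranged from 20.1 to 71.1 normalized counts in WT mice and from 0.966 to 8.71 in Klrk1-/- mice, without overlap. Livers were whole, so fewer cells of a type and less RNA per cell cannot be told apart. The stellate cell markers Lrat, Reln, Des and Pdgfrb were present in every mouse, and of 18 further stellate cell genes 17 reached the minimum, Gfap being the exception.

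Among WT mice on SSD, mouse 1 had the highest value of its group for 34 of the 40 members that reached the minimum mean over all mice, and mouse 5 had the lowest for 30. The median of these 40 members lay 1.64 above the mean of WT mice on NCD in mouse 1, 0.82 in mouse 2, 0.86 in mouse 3, 0.68 in mouse 4 and -0.01 in mouse 5, on the log2 scale. The 3 Klrk1-/- mice on SSD lay closer together, at 0.40, 0.46 and 0.33. Macrophage markers were also highest in mouse 1 and lowest in mouse 5 among the WT mice on SSD, but the order of the others differed, and mouse 5 lay above the WT mice on NCD. The sum of 16 macrophage markers was 27070.0 normalized counts in mouse 1, 12135 in mouse 2, 11961 in mouse 3, 17862 in mouse 4 and 10551 in mouse 5, against 7444 to 8989 in WT mice on NCD, 6497 to 7497 in Klrk1-/- mice on NCD and 8561 to 9840.1 in Klrk1-/- mice on SSD. Their part in the results below was not tested. No macrophage marker was at 0 in all mice. Of 8 hepatocyte markers, 5 were called lower on SSD in WT mice and 6 in Klrk1-/- mice, beside 17.6% and 16% of all genes.

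**Figure D1:**
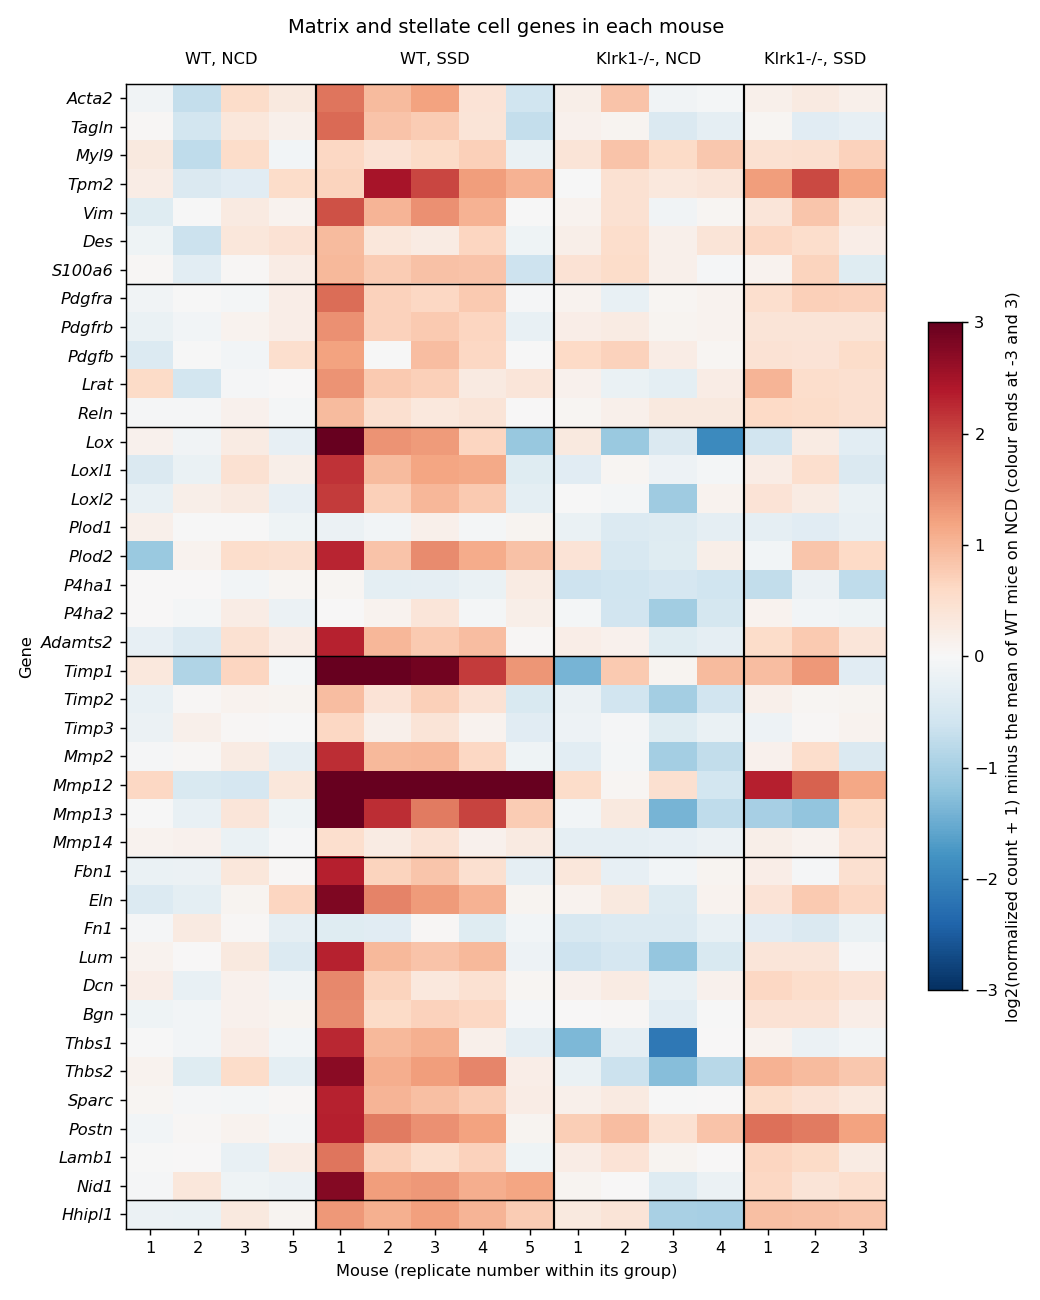
Expression of the 40 members with a mean of at least 10, 1 column per mouse and 1 row per gene, as log2(normalized count + 1) minus the mean of the 4 WT mice on NCD, with black lines between the gene groups named in the text and between the groups of mice. WT mouse 1 on SSD is the darkest column with a median of 1.64, WT mouse 5 on SSD stays near the NCD mice at -0.01, and the 3 Klrk1-/- mice on SSD lie between at 0.33 to 0.46.

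The members differ widely in how much RNA they make. Per kilobase of gene length in WT mice on NCD, Fn1 (fibronectin, which hepatocytes also secrete) stood first at a mean of 5115 normalized counts, followed by the small proteoglycan genes Dcn (decorin) at 1739.8 and Bgn (biglycan) at 1722, by Sparc at 1042 and by Plod1 at 955. At the low end were Cnn1 at 1.90, Mmp13 at 1.85, Hhipl1 at 2.33, Lox at 2.64 and Mmp12 at 3.27. On SSD, the group median of Mmp12 was 97.3 normalized counts per kilobase in WT mice, beside 107 for Acta2, and 11.6 in Klrk1-/- mice. Cnn1, a calponin gene of contractile cells, was nearly silent at 0 to 6.89 normalized counts in all 16 mice and passed no minimum, so it was not tested.

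The first question was which of these genes the diet moved in WT mice. Expression on SSD was higher for the proteases Mmp12, Mmp13 and Mmp14 and the inhibitor Timp1, for the matrix protein genes Nid1, Sparc, Postn and Thbs2, for the tropomyosin gene Tpm2 and for 9 more, and no member was called lower. Of 40 members tested, 18 were called higher, while 17.3% of all 13091 genes tested were called higher and 17.6% lower. The median log2 fold change of the 40 members was 0.78, beside -0.002 for all genes tested. Timp1, Mmp12, Mmp13 and Hhipl1 had a mean under 10 on NCD and passed the minimum through the mice on SSD, where they are high. Diet groups were apart, without overlap, for 9 members, namely Tpm2, Plod2, Timp1, Mmp12, Mmp13, Mmp14, Sparc, Nid1 and Hhipl1, while 13.5% of all genes tested were higher without overlap. The count of members called higher was 32 without SSD mouse 5, 30 without both mouse 1 and mouse 5, and 11 without NCD mouse 1, 2 or 5. In these fits 33.7%, 30.8% and 27.5% to 30.6% of all genes were called in either direction, beside 34.9% with all mice. Mmp12, Mmp13, Nid1, Postn, Sparc, Timp1 and Tpm2 were called under every alternative in which they were tested, and the other 11 were not called under at least 1. With all mice kept, edgeR called 25 members and DESeq2 28, beside 35.1% and 37.7% of all genes. Both added Dcn, Lamb1, Loxl1, Loxl2, Lum, Mmp2 and Pdgfrb to the members of the main fit, and DESeq2 also Fbn1, Lox and Thbs1.

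In Klrk1-/- mice, expression on SSD was higher for Thbs2, Mmp12, Tpm2, the proteoglycan gene Lum and 12 more, and again no member was called lower. Of 37 members tested, 16 were called higher, beside 13.4% of all 12904 genes tested called higher and 16% called lower. The median log2 fold change of the members was 0.43, beside -0.002 for all genes tested. The groups did not overlap for 18 members, against 17.9% of all genes that were higher without overlap. Mmp12 and Hhipl1 passed the minimum through the mice on SSD, and Timp1, Mmp13, Lox and Cnn1 stayed under the minimum mean over the 7 Klrk1-/- mice and have no test there. Of the 16 called members, 3 had a fold change over 2, while 5.46% of all genes were called with such a fold. When all 4 groups shared 1 estimate of the spread, 6 of the 16 were called, with Hhipl1 and P4ha2 in addition, beside 24% of all genes. Lrat, Mmp14, Thbs2, Timp2 and Tpm2 were called under every alternative without a fold limit.

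**Figure D2:**
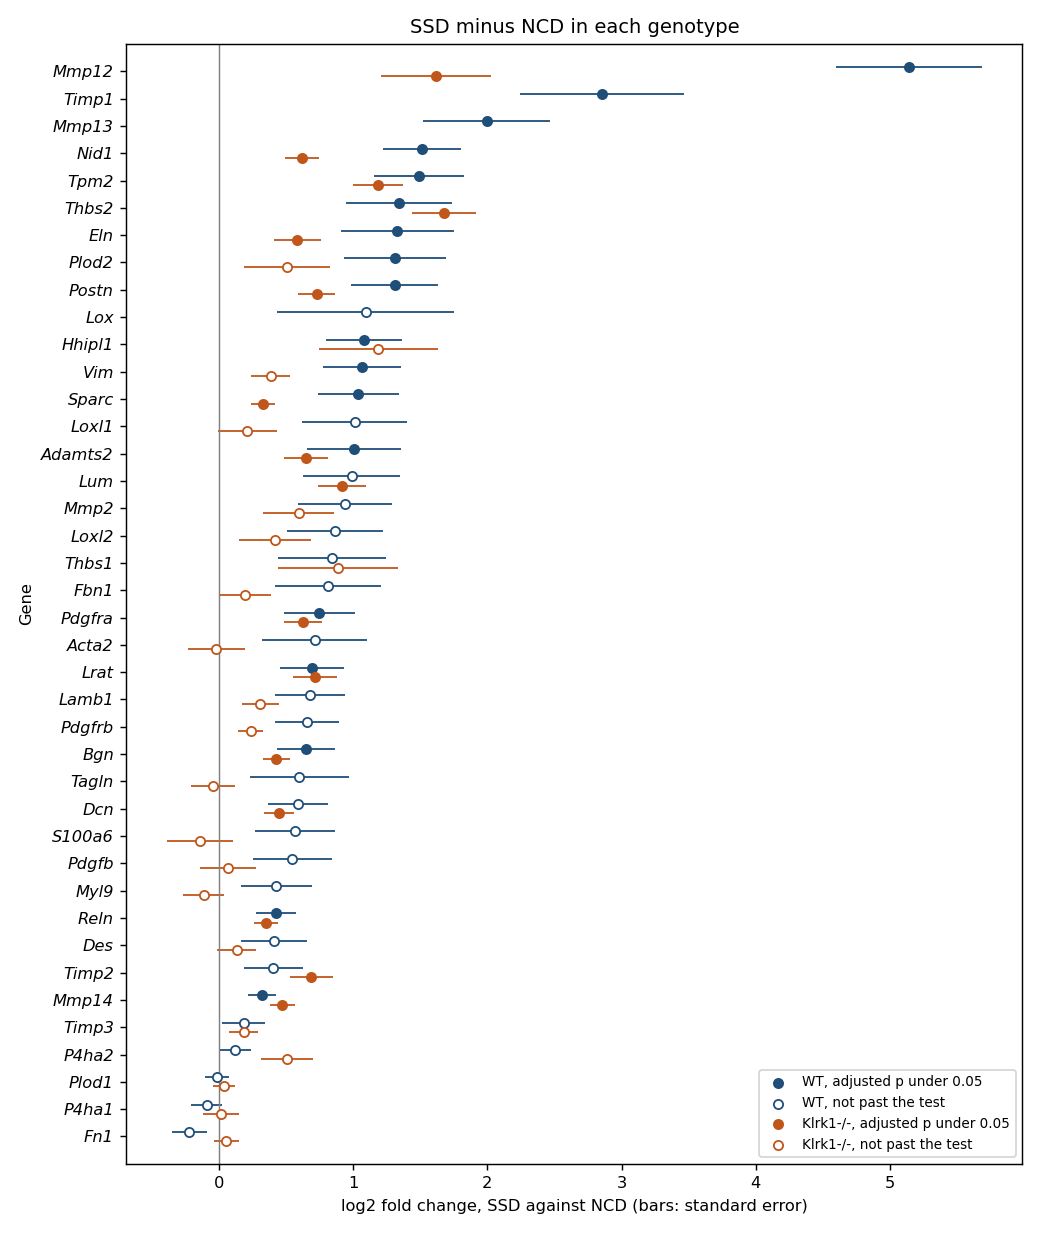
Log2 fold change of SSD against NCD for each member tested, in WT mice (blue) and in Klrk1-/- mice (orange), with bars for the standard error and filled points for an adjusted p under 0.05. Mmp12 has the highest value in WT mice at 5.14, with 1.62 in Klrk1-/- mice, and Tpm2 stands at 1.49 and 1.19.

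The second question was which members differed between the genotypes on SSD. Mmp12 was the only one of 40 members tested that was called, and it was lower in Klrk1-/- mice. Of all 13116 genes tested, 1.22% were called higher and 1.68% lower. At an unadjusted p under 0.05 there were 7 members, while 22.9% of all genes tested had such a p. The median log2 fold change of the 40 members was -0.42, beside -0.001 for all genes tested, and 36 of the 40 had a value below 0. Without overlap between the genotypes, 6 members were lower in Klrk1-/- mice, namely Plod1, Plod2, Timp1, Mmp12, Mmp13 and Nid1, against 8.74% of all genes. Timp1 and Mmp13 had a mean under 10 in Klrk1-/- mice on SSD and passed the minimum through the WT mice, where they are high. The calls varied with the WT mice included. Without both WT mouse 1 and mouse 5, 12 members were called lower, which were Eln, Lox, Loxl1, Loxl2, Lum, Mmp12, Mmp13, Nid1, Sparc, Tagln, Timp1 and Vim, while 6.44% of all genes were then called in either direction, and 3 members were called without mouse 1 alone or mouse 5 alone (5.49% and 4.01% of all genes). None was called without WT mouse 2 (1.27% of all genes) or without Klrk1-/- mouse 1, 2 or 3 (0.342%, 0.663% and 0.472% of all genes). In these fits 5 to 7 members had an unadjusted p under 0.05, and with all mice 22.9% of all genes had such a p. Fitted with the mouse number as a block, which leaves out WT mice 4 and 5, 11 members were called lower. In the same mice without the block 5 were called lower. The shares of all genes called were 5.41% and 3.61%.

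On NCD the genotypes differed in 6 of 35 members tested. Postn was higher in Klrk1-/- mice, and Plod1, P4ha1, Timp2, Fn1 and Lum were lower. Of all 12845 genes tested, 6.41% were called higher and 6.66% lower, and at an unadjusted p under 0.05 there were 12 members, while 31% of all genes tested had such a p. Without overlap, 1 member was higher (9.54% of all genes) and 3 were lower (9.79% of all genes). The median log2 fold change of the members was -0.06. Leaving out 1 mouse left between 2 and 6 calls, with 2 without WT mouse 2 or Klrk1-/- mouse 3 and 3 without WT mouse 1, WT mouse 3 or Klrk1-/- mouse 2. P4ha1 and Postn were called in each of these, in which 5.59% to 17.1% of all genes were called. With all 4 groups in 1 model, 4 of 40 members were called (Fn1, P4ha1, P4ha2 and Plod1), without Postn, Lum and Timp2, beside 15.3% of all genes.

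The interaction of diet and genotype, the difference between the SSD responses of the genotypes, was called for Mmp12 alone among 40 members tested. Over all 13068 genes it was called in 0.321% with a larger response in Klrk1-/- mice and in 0.559% with a smaller one. At an unadjusted p under 0.05 there were 4 members, the others being Timp1, Mmp13 and Nid1, while 17.3% of all genes tested had such a p, and 29 of the 40 values were below 0. Timp1 and Mmp13 passed the minimum through the WT mice on SSD, where they are high, and Mmp12 had a mean under 10 on NCD in both genotypes. The call was lost without NCD mouse 2 or 3 or SSD mouse 2 of the WT mice, without NCD mouse 1, 2 or 3 of the Klrk1-/- mice and without any of their 3 mice on SSD, with an adjusted p for Mmp12 of 0.0528 to 0.123. For the other members, a call in one genotype and none in the other is therefore not a shown difference between the genotypes.

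**Figure D3:**
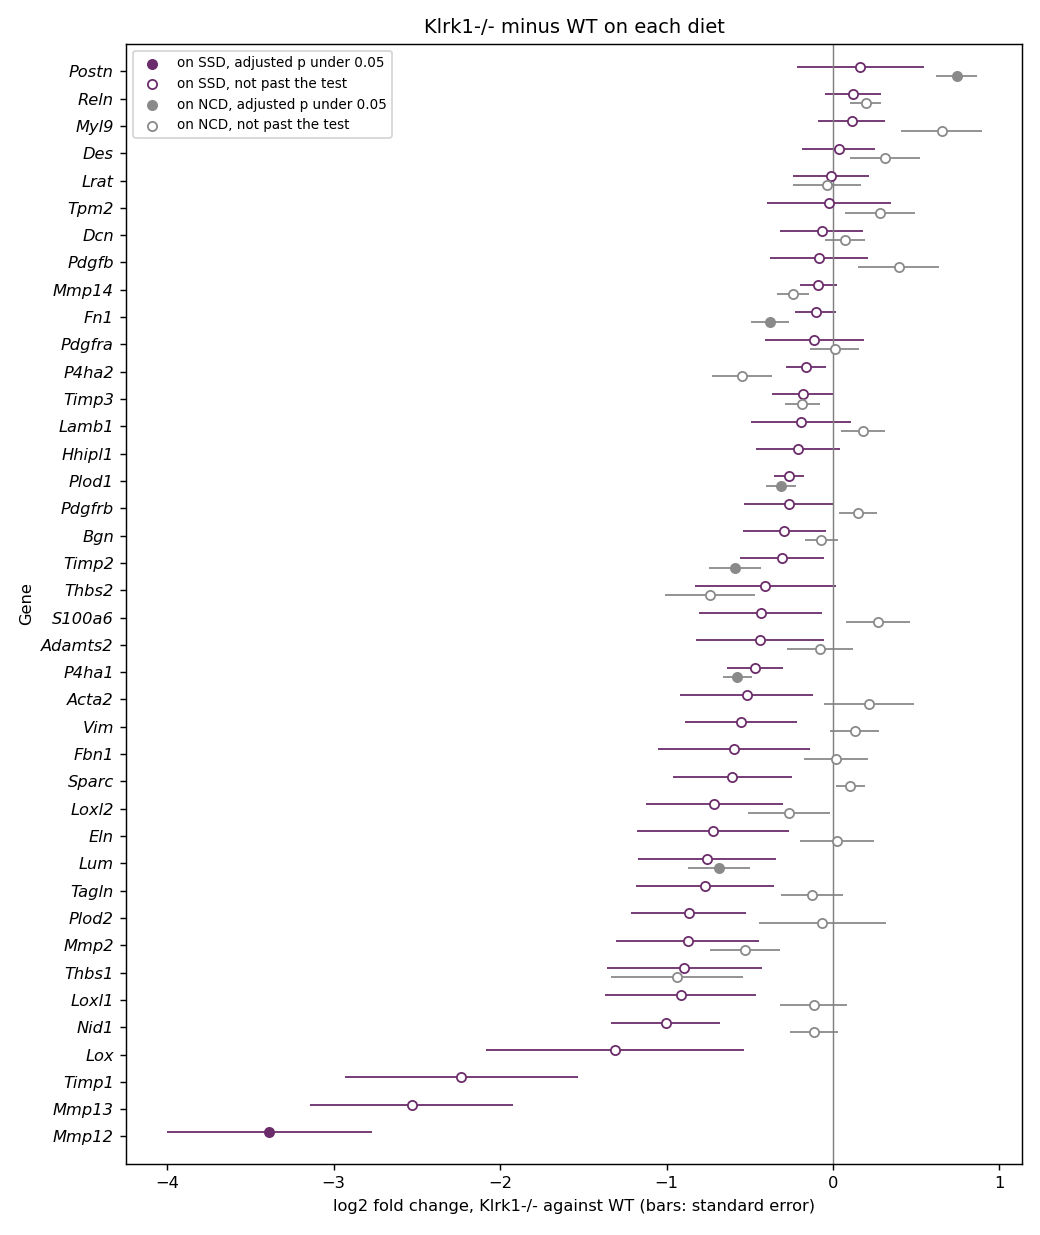
Log2 fold change of Klrk1-/- against WT mice for each member tested, on SSD (purple) and on NCD (grey), with bars for the standard error and filled points for an adjusted p under 0.05. On SSD the values lie mostly below 0 with Mmp12 lowest at -3.39, and on NCD the called members are Postn at 0.74 and 5 genes between -0.68 and -0.31.

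The proteases and their inhibitors showed the widest range. Mmp12 (macrophage metalloelastase, which cuts elastin) and Mmp13 (the main interstitial collagenase of the mouse) lie close together on chromosome 9. Their promoters are shown because these 2 proteases had the largest rises of the proteases listed in WT mice and were both lower without overlap in Klrk1-/- mice on SSD. The windows hold the 250 bases before the start site, from the RefSeq promoter table (GRCm38.p6), placed on GRCm39 by exact match. Capitals mark an AP-1 motif, TGAGTCA, which was searched on both strands, so that it reads TGACTCA where it lies on the opposite strand.
Mmp12, chr9:7347124-7347373, plus strand: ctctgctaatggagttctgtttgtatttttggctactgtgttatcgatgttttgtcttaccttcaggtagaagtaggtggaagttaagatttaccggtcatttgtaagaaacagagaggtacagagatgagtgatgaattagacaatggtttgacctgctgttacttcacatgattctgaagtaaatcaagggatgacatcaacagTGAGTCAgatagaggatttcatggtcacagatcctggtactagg
Mmp13, chr9:7272264-7272513, plus strand: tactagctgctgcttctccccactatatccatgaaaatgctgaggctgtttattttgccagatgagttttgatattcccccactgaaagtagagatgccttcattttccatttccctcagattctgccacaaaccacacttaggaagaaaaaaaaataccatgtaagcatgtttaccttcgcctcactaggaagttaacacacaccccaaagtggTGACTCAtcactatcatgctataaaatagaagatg
The motif lay at -44 to -38 from the start site in Mmp12 and at -35 to -29 on the opposite strand in Mmp13. The letters occur in 4.46% of the 32851 promoter windows of the table. Counted per gene, they occur in 5.16% of 27025 genes and in 2 of the 28 members with an entry, which are these 2. A TATA box (TATAAA, both strands) stood at -16 to -11 in Mmp13, and such letters occur in 12.4% of windows, 14.3% of genes and 5 of the 28 members. A second entry for Mmp12, with an earlier start site, held no motif searched. The CArG box, the site of serum response factor, was searched as CCWWWWWWGG, where W is A or T. This strict pattern was found in Myl9 alone of the 28 members with an entry, and in 1.47% of windows and 1.62% of genes overall. The Acta2 window holds CCCTATATGG, which departs from the pattern in a single letter and was not counted. Some windows overlap annotated exons, by 250 of 250 bases in Myl9 and 217 in Acta2, and by 0 in the 2 windows printed. A match is a description of letters only.

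Mmp12 (ENSMUSG00000049723, chr9:7344381-7369499) was at 9.65, 4.03, 3.91 and 7.72 normalized counts in WT mice on NCD and at 1060.2, 252, 188, 107 and 158 on SSD. In Klrk1-/- mice it was at 9.19, 6.22, 8.71 and 3.69 on NCD and at 33.8, 22.5 and 14.6 on SSD. All 5 WT mice on SSD were above all other mice, with mouse 1 far above the rest, and the 3 Klrk1-/- mice on SSD were above every mouse on NCD. The log2 fold change of SSD against NCD was 5.14 ± 0.54 (SE, adjusted p = 3.53e-05) in WT mice, a 35.3-fold difference on this scale, and 1.62 ± 0.41 (SE, adjusted p = 0.0124) in Klrk1-/- mice. Against WT mice on SSD, Klrk1-/- mice were lower by a log2 fold change of -3.39 ± 0.61 (SE, adjusted p = 0.0228). The interaction was -3.52 ± 0.76 (SE, adjusted p = 0.034). The call in Klrk1-/- mice was lost without their SSD mouse 1, at 1.33 (adjusted p = 0.0804). The genotype difference on SSD had an adjusted p of 0.0512 without WT mouse 2, and 0.0772, 0.0908 and 0.098 without Klrk1-/- mouse 1, 2 or 3, with log2 values of -3.09 to -3.67 in these 4 fits, and it held without WT mouse 1 at -2.86 (adjusted p = 0.000824). Beside Mmp12, the macrophage markers Marco and Cd68 were called lower in Klrk1-/- mice on SSD, at -2.45 ± 0.39 (SE) and -1.36 ± 0.21 (SE). These were 2 of 16 markers, while 1.68% of all genes were called lower. Of these 16, 15 had a value below 0, with a median of -0.92. There were 11 with an unadjusted p under 0.05 and 9 without overlap between the genotypes, beside 22.9% and 17.9% of all genes tested. The part of these markers in the Mmp12 difference was not tested.

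Mmp13 (ENSMUSG00000050578, chr9:7272514-7283331) was at 4.82, 4.03, 6.52 and 4.41 normalized counts in WT mice on NCD and at 61.8, 26.2, 16.2, 23.1 and 8.98 on SSD. Klrk1-/- mice had 4.60, 6.22, 1.24 and 2.46 on NCD and 1.93, 1.61 and 7.71 on SSD. The gene thus rose in WT mice, without overlap, by a log2 fold change of 1.995 ± 0.47 (SE, adjusted p = 0.00721), and was not tested for diet in Klrk1-/- mice, 2 of which on each diet had 3 reads or fewer. On SSD the genotype difference of -2.53 ± 0.61 (SE, adjusted p = 0.0573) missed the threshold although no Klrk1-/- mouse reached the lowest WT mouse.

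Timp1 (ENSMUSG00000001131, chrX:20736405-20740974), an inhibitor of MMPs that activated stellate cells secrete, was called in WT mice. These were at 6.03, 2.01, 7.82 and 4.41 normalized counts on NCD and 167, 46.5, 40.9, 23.1 and 13.1 on SSD, a log2 fold change of 2.86 ± 0.61 (SE, adjusted p = 0.00414). Klrk1-/- mice were at 1.15, 8.71, 4.97 and 9.84 on NCD and 9.66, 12.8 and 3.43 on SSD. The WT mice on SSD lay above all others, mouse 5 by a small margin. The genotype difference on SSD was -2.23 ± 0.70 (SE, adjusted p = 0.106) and the interaction -2.34 ± 0.95 (SE, adjusted p = 0.225), neither called.

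Mmp14 (ENSMUSG00000000957, chr14:54669069-54682821), a membrane-bound MMP that activates proMMP2, rose on SSD in both genotypes by a small amount. It went from 666, 683, 538 and 610.2 to 887, 738, 841, 685 and 752 normalized counts in WT mice, a log2 fold change of 0.32 ± 0.10 (SE, adjusted p = 0.0309). In Klrk1-/- mice it went from 515, 519, 522 and 552 to 705, 667 and 832, a log2 fold change of 0.47 ± 0.09 (SE, adjusted p = 0.00331), and the diets did not overlap in either genotype. Its target Mmp2, the gelatinase of stellate cells, ranged from 71.7 to 103 on NCD and from 78.4 to 407 on SSD in WT mice. The log2 fold change of Mmp2 was 0.94 ± 0.35 (SE, adjusted p = 0.0549), not called in the main fit. Mmp2 was called by edgeR and DESeq2 with all mice, and by limma without mouse 5.

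Timp2 (ENSMUSG00000017466, chr11:118191895-118246566) was called in Klrk1-/- mice only, which is not a shown difference from WT mice since the interaction was 0.28 ± 0.31 (SE, adjusted p = 0.67). It was at 284, 217, 158 and 215 normalized counts on NCD and 357, 335 and 344 on SSD in Klrk1-/- mice, a log2 fold change of 0.69 ± 0.16 (SE, adjusted p = 0.00832). WT mice were at 277, 330.2, 347 and 339 on NCD and 612, 428, 531, 433 and 235 on SSD, a log2 fold change of 0.41 ± 0.22 (SE, adjusted p = 0.174). On NCD, the difference of Klrk1-/- from WT mice was -0.59 ± 0.16 (SE, adjusted p = 0.0296), with 1 Klrk1-/- mouse inside the WT range. Timp3, which binds to the matrix, stayed between -0.18 and 0.18 in all 4 group comparisons and was not called.

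**Figure D4:**
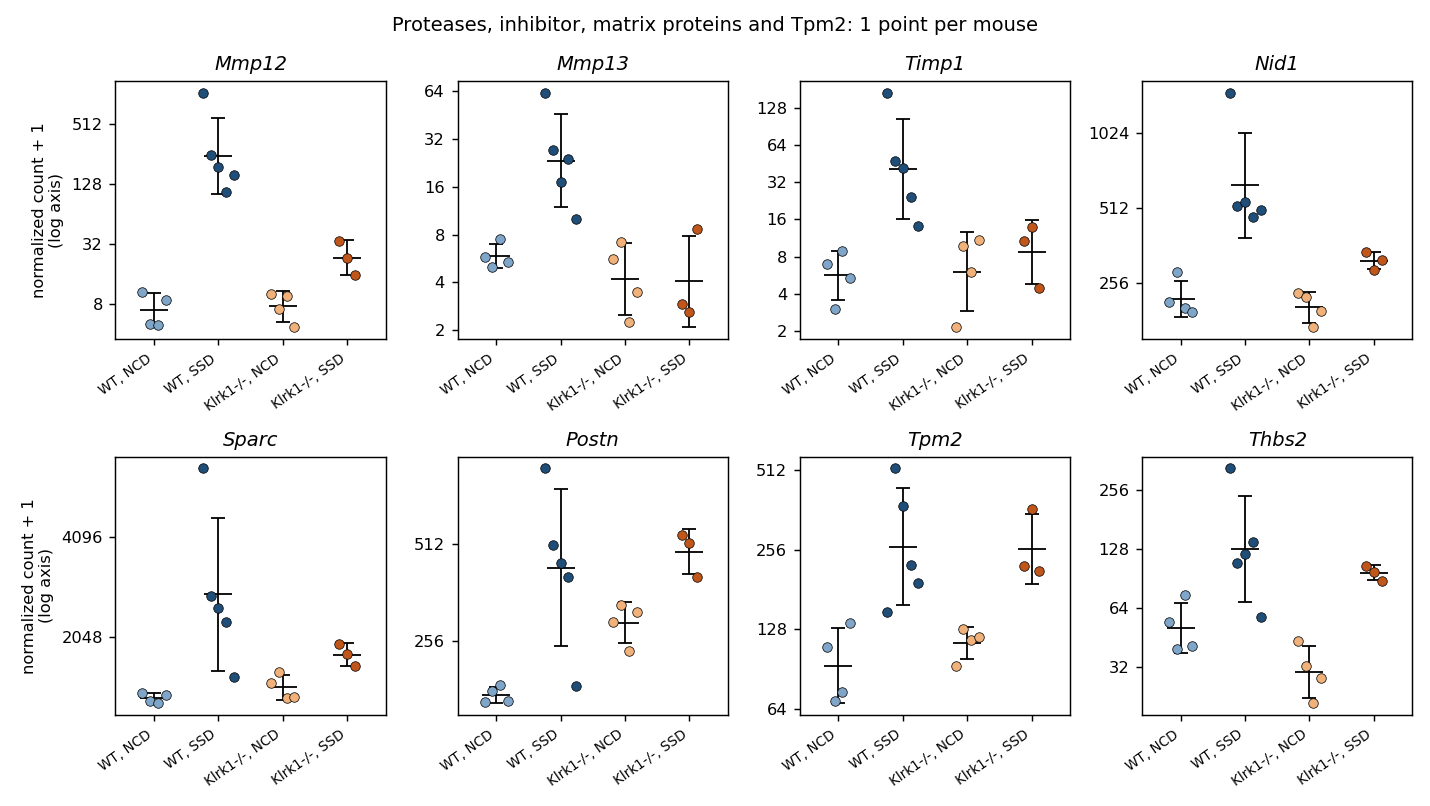
Normalized count + 1 on a log axis for 8 members, 1 point per mouse in the order of the mouse numbers, with the mean and SD of the log2 values as bars, in WT and Klrk1-/- mice on NCD and SSD. In Mmp12 the WT mice on SSD stand above all others from 107 to 1060.2 normalized counts, and in Tpm2 and Thbs2 the Klrk1-/- mice on SSD lie within the range of the WT mice on SSD.

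Among the 12 matrix proteins, 6 were called higher in WT mice on SSD and 8 in Klrk1-/- mice, while 17.3% and 13.4% of all genes were called higher. Nid1 (ENSMUSG00000005397, chr13:13612136-13686854) encodes nidogen, which links laminin and type IV collagen in basement membranes. It was at 215, 282, 202 and 194 normalized counts in WT mice on NCD and at 1488, 524, 542, 469.9 and 503 on SSD. Klrk1-/- mice had 232, 224, 169 and 197 on NCD and 339, 289 and 315 on SSD. No mouse on SSD overlapped with the NCD mice of its genotype, and all 5 WT mice on SSD were above the 3 Klrk1-/- mice on SSD. Nid1 rose by 1.51 ± 0.29 (SE, adjusted p = 0.00217) in WT mice and by 0.62 ± 0.13 (SE, adjusted p = 0.00386) in Klrk1-/- mice. The genotype difference on SSD of -1.01 ± 0.33 (SE, adjusted p = 0.115) and the interaction of -0.89 ± 0.38 (SE, adjusted p = 0.241) were not called.

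Sparc (ENSMUSG00000018593, chr11:55285326-55314009), a collagen-binding glycoprotein of remodelling tissue, was at 1382, 1309.9, 1289 and 1364 normalized counts in WT mice on NCD and at 6582, 2705, 2489, 2269.7 and 1549.6 on SSD. In Klrk1-/- mice the values were 1485, 1598, 1334 and 1344 on NCD and 1948, 1810.1 and 1671 on SSD. WT mouse 1 on SSD had more than any other mouse, and the remaining WT mice on SSD still lay above the WT mice on NCD. The rise was 1.04 ± 0.30 (SE, adjusted p = 0.0205) in WT mice and 0.33 ± 0.09 (SE, adjusted p = 0.0186) in Klrk1-/- mice, without overlap in either.

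Postn (ENSMUSG00000027750, chr3:54268530-54298458), periostin of healing and fibrotic tissue, was called for the diet and, on NCD, for the genotype, although with all 4 groups in 1 model the call on NCD (adjusted p = 0.0931) and that for the diet in Klrk1-/- mice (adjusted p = 0.104) were lost. WT mice were at 164, 177, 185 and 166 normalized counts on NCD and 874, 507, 445, 403 and 184 on SSD. Klrk1-/- mice were at 291, 328, 236 and 314 on NCD and 545, 512 and 401 on SSD. All Klrk1-/- mice on NCD were above all WT mice on NCD, and WT mouse 5 on SSD lay within the NCD range of its genotype. The log2 fold change was 1.31 ± 0.32 (SE, adjusted p = 0.0088) for the diet in WT mice, 0.73 ± 0.14 (SE, adjusted p = 0.00237) for the diet in Klrk1-/- mice and 0.74 ± 0.12 (SE, adjusted p = 0.00299) for Klrk1-/- against WT on NCD. On SSD the genotype difference was not called, at 0.16 ± 0.38 (SE, adjusted p = 0.8291).

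Thbs2 (ENSMUSG00000023885, chr17:14885762-14914497), thrombospondin of fibroblasts, showed the largest rise of the matrix proteins in Klrk1-/- mice. It was at 42.5, 31.1, 19.9 and 27.1 normalized counts on NCD and at 103, 96.4 and 86.6 on SSD in Klrk1-/- mice, a log2 fold change of 1.68 ± 0.24 (SE, adjusted p = 0.000356). In WT mice it was at 53.1, 38.3, 73.0 and 39.7 on NCD and at 327, 106, 119, 138 and 56.3 on SSD, a log2 fold change of 1.34 ± 0.39 (SE, adjusted p = 0.0209), with mouse 5 inside the NCD range. Thbs1, which can release active TGF-beta, had log2 fold changes of 0.84 ± 0.40 (SE) in WT mice and 0.89 ± 0.44 (SE) in Klrk1-/- mice and was called in neither.

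Elastic fibres are represented by Eln (elastin) and Fbn1 (fibrillin). Eln (ENSMUSG00000029675, chr5:134731447-134776177) was at 72.4, 78.5, 102 and 151 normalized counts in WT mice on NCD and at 676, 272, 234, 199 and 102 on SSD, and at 103, 119, 73.4 and 103 on NCD and 128, 169 and 150.0 on SSD in Klrk1-/- mice. WT mouse 5 on SSD lay within the NCD range, whereas the diets did not overlap in Klrk1-/- mice. The rise of Eln was 1.33 ± 0.42 (SE, adjusted p = 0.0283) in WT mice and 0.59 ± 0.17 (SE, adjusted p = 0.0255) in Klrk1-/- mice. Fbn1 was not called, at 0.81 (adjusted p = 0.131) in WT mice, where mouse 1 stood at 275 normalized counts and the other 4 between 44.1 and 97.1.

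The small leucine-rich proteoglycans bind collagen fibrils. Bgn (ENSMUSG00000031375, chrX:72527208-72539539) was at 2277, 2382, 2741 and 2667 normalized counts in WT mice on NCD and 6732, 3712, 4024, 3864 and 2446 on SSD, and at 2538, 2565, 2017 and 2491 on NCD and 3405, 3372 and 2901 on SSD in Klrk1-/- mice. It rose in both genotypes, by 0.65 ± 0.21 (SE, adjusted p = 0.0343) and 0.43 ± 0.10 (SE, adjusted p = 0.00879). Dcn (ENSMUSG00000019929, chr10:97315471-97354005) and Lum (ENSMUSG00000036446, chr10:97400990-97408565) lie next to each other on chromosome 10. Dcn was at 3553, 2655, 3390.4 and 2908 on NCD and 8464, 4913, 3871, 4230.2 and 3260.1 on SSD in WT mice, and at 3412, 3708, 2655 and 3391 on NCD and 4778, 4498 and 4130.5 on SSD in Klrk1-/- mice. It was called in Klrk1-/- mice at 0.45 ± 0.11 (SE, adjusted p = 0.0104), and in WT mice the value was 0.59 ± 0.22 (SE, adjusted p = 0.0578). Lum was at 186, 174, 214 and 131 on NCD and 866, 339.6, 314, 340.2 and 156 on SSD in WT mice, and at 113, 122, 77.1 and 127 on NCD and 223, 224 and 169.7 on SSD in Klrk1-/- mice. The diet gave 0.99 ± 0.36 (SE, adjusted p = 0.051) in WT mice, which missed the threshold, and 0.92 ± 0.18 (SE, adjusted p = 0.00309) in Klrk1-/- mice. On NCD every Klrk1-/- mouse had less Lum than every WT mouse, with a log2 fold change of -0.68 ± 0.18 (SE, adjusted p = 0.0307).

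Fn1 (ENSMUSG00000026193, chr1:71624679-71692359), the member with the highest level per kilobase, was not called for the diet in either genotype. It was at 20229, 24902, 21240.2 and 17221 normalized counts on NCD and 16009.8, 16448, 21127, 16172 and 19730.5 on SSD in WT mice, a log2 fold change of -0.22 ± 0.13 (SE, adjusted p = 0.212). Klrk1-/- mice were at 14906, 15662, 15649.7 and 17659.8 on NCD and 16361, 15314 and 18095 on SSD. On NCD the difference of Klrk1-/- from WT mice was -0.38 ± 0.11 (SE, adjusted p = 0.0468), with overlapping values. The laminin chain gene Lamb1 was at 0.68 (adjusted p = 0.0612) for the diet in WT mice, not called in the main fit. It was called by edgeR and DESeq2 with all mice, and by limma without mouse 5.

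Of the 8 enzymes that modify or cross-link collagen, Plod2 and Adamts2 were called higher on SSD in WT mice, beside 17.3% of all genes. Plod2 (ENSMUSG00000032374, chr9:92424276-92490481), the lysyl hydroxylase of collagen telopeptides, was at 8.44, 21.1, 28.7 and 27.6 normalized counts on NCD and 98.3, 36.3, 54.2, 43.5 and 36.7 on SSD in WT mice, and at 26.4, 13.7, 14.9 and 22.1 on NCD and 18.3, 35.3 and 30.0 on SSD in Klrk1-/- mice. The diets did not overlap in WT mice, with a log2 fold change of 1.31 ± 0.38 (SE, adjusted p = 0.02), and the value in Klrk1-/- mice was 0.51 ± 0.32 (SE, adjusted p = 0.253). Adamts2 (ENSMUSG00000036545, chr11:50492911-50698400), which removes the N-terminal propeptide of procollagen, was at 125, 113, 206 and 174 on NCD and 742, 299, 259, 285 and 154 on SSD in WT mice. In Klrk1-/- mice it was at 171, 164, 117 and 124 on NCD and 222, 258 and 195 on SSD. It rose by 1.01 ± 0.35 (SE, adjusted p = 0.0434) in WT mice, of which mouse 5 lay within the NCD range, and by 0.65 ± 0.16 (SE, adjusted p = 0.011) in Klrk1-/- mice.

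Lox (ENSMUSG00000024529, chr18:52649139-52662939), lysyl oxidase, starts the cross-links between collagen and elastin chains. It was at 13.3, 11.1, 14.3 and 9.93 normalized counts in WT mice on NCD and at 131, 32.1, 30.5, 19.5 and 4.90 on SSD, so that 4 mice were above and mouse 5 below all NCD mice. The log2 fold change of 1.09 ± 0.66 (SE, adjusted p = 0.218) was not called in the main fit. Lox was among the members called without mouse 5, and among those that DESeq2 called with all mice. Klrk1-/- mice had 14.9, 4.98, 8.71 and 2.46 on NCD and 7.73, 14.5 and 9.43 on SSD, under the minimum for a test of the diet. The related Loxl1 and Loxl2 had values of 1.01 (adjusted p = 0.0616) and 0.87 (adjusted p = 0.0768) for the diet in WT mice, and -0.92 (adjusted p = 0.26) and -0.71 (adjusted p = 0.334) for the genotype on SSD.

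The prolyl and lysyl hydroxylase genes P4ha1 and Plod1 were called between the genotypes on NCD. P4ha1 (ENSMUSG00000019916, chr10:59159118-59209126), a catalytic subunit of collagen prolyl hydroxylase, was at 543, 542, 509.7 and 560.6 normalized counts in WT and 348, 357, 382 and 358 in Klrk1-/- mice on NCD. This was a log2 fold change of -0.58 ± 0.09 (SE, adjusted p = 0.00207) without overlap. On SSD the values were 561.3, 442, 444, 469.9 and 636 in WT and 323, 475 and 317 in Klrk1-/- mice, with -0.47 ± 0.17 (SE, adjusted p = 0.138). Plod1 (ENSMUSG00000019055, chr4:147994210-148021224) was at 1767, 1595, 1598 and 1451 in WT and 1389, 1209, 1222 and 1333 in Klrk1-/- mice on NCD, a log2 fold change of -0.31 ± 0.09 (SE, adjusted p = 0.0377). On SSD it was at 1426, 1512, 1786, 1536 and 1690.1 and 1329, 1264 and 1369.7, a log2 fold change of -0.26 ± 0.09 (SE, adjusted p = 0.124), also without overlap. The diet gave -0.09 (adjusted p = 0.573) for P4ha1 and -0.01 (adjusted p = 0.925) for Plod1 in WT mice. With every mouse scaled to the same total, Plod1 was at 0.33 (adjusted p = 0.00467) in WT mice, where that scaling puts the median of all genes at 0.344. P4ha2 gave 0.12 (adjusted p = 0.448) for the diet in WT mice and 0.51 (adjusted p = 0.0653) in Klrk1-/- mice.

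Contractile and cytoskeletal genes are the textbook signs of an activated stellate cell. Of 7 tested, Tpm2 and Vim were called higher in WT mice and Tpm2 alone in Klrk1-/- mice, beside the same 17.3% and 13.4% of all genes, and without WT mouse 5 on SSD Acta2, Tagln and S100a6 were called as well. Acta2 (ENSMUSG00000035783, chr19:34218490-34232990) encodes the smooth muscle actin by which activated stellate cells are recognised. It was at 72.4, 47.3, 115 and 96.0 normalized counts in WT mice on NCD and at 239.8, 153, 182, 105 and 51.4 on SSD, so mouse 5 lay near the low end of the NCD mice and mouse 4 within their range. The log2 fold change was 0.71 ± 0.39 (SE, adjusted p = 0.174). Among Klrk1-/- mice it was at 88.5, 142, 73.4 and 75.0 on NCD and 87.9, 94.8 and 87.4 on SSD, with -0.02 ± 0.21 (SE, adjusted p = 0.953), and at 0.235 with every mouse scaled to the same total, which puts the median of all genes at 0.254. Tagln, an actin-binding protein, gave 0.60 (adjusted p = 0.229) in WT mice, Myl9, a myosin light chain, 0.43 (adjusted p = 0.225), and S100a6, a calcium-binding protein, 0.57 (adjusted p = 0.16). For Klrk1-/- mice these 3 genes stood at -0.04, -0.11 and -0.14, none called. With every mouse scaled to the same total they stood at 0.211, 0.143 and 0.113, where the median of all genes is 0.254. In GENCODE M39, a later annotation than the study's, 60.7% of the exon bases of Tagln are shared with an antisense gene. The use of strand in the counting is not stated, so the Tagln reads may be mixed. The shared bases number 1241, while the deposited length of Tagln is 965 bases, so shares in M39 need not hold for the counted genes. Such shared bases make up 24.3% in Mmp2, 21.3% in Timp3, 20.1% in Fbn1, 17.1% in Loxl2 and 12.3% in Vim.

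Tpm2 (ENSMUSG00000028464, chr4:43514711-43523765), a tropomyosin of contractile cells, was at 109, 67.5, 73.0 and 135 normalized counts in WT mice on NCD and at 148, 517, 373, 222 and 190.2 on SSD. Klrk1-/- mice had 91.9, 127, 116 and 118 on NCD and 220.2, 365 and 211 on SSD. The diets did not overlap in either genotype, and here mouse 2, not mouse 1, was the highest WT mouse on SSD and mouse 1 the lowest. The rise was 1.49 ± 0.34 (SE, adjusted p = 0.00552) in WT and 1.19 ± 0.19 (SE, adjusted p = 0.000827) in Klrk1-/- mice, with a genotype difference on SSD of -0.02 ± 0.37 (SE). Vim (ENSMUSG00000026728, chr2:13578738-13587637), the intermediate filament of mesenchymal cells and also of leukocytes, was at 467, 601, 726 and 642 on NCD and 2264, 1214, 1554, 1249.9 and 598 on SSD in WT mice, a log2 fold change of 1.07 ± 0.29 (SE, adjusted p = 0.0149). Among Klrk1-/- mice Vim was at 646, 831, 559.6 and 625 on NCD and 779, 1069 and 764 on SSD, with 0.39 ± 0.15 (SE, adjusted p = 0.0686). Des (ENSMUSG00000026208, chr1:75336973-75345223), desmin, which stellate cells carry before and after activation, was at 113, 78.5, 156 and 166 on NCD and 240.5, 157, 147, 193 and 112 on SSD in WT mice, and at 139, 179, 138 and 161 on NCD and 189, 177 and 142 on SSD in Klrk1-/- mice. Its values of 0.41 (adjusted p = 0.217) and 0.13 (adjusted p = 0.52) were not called.

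**Figure D5:**
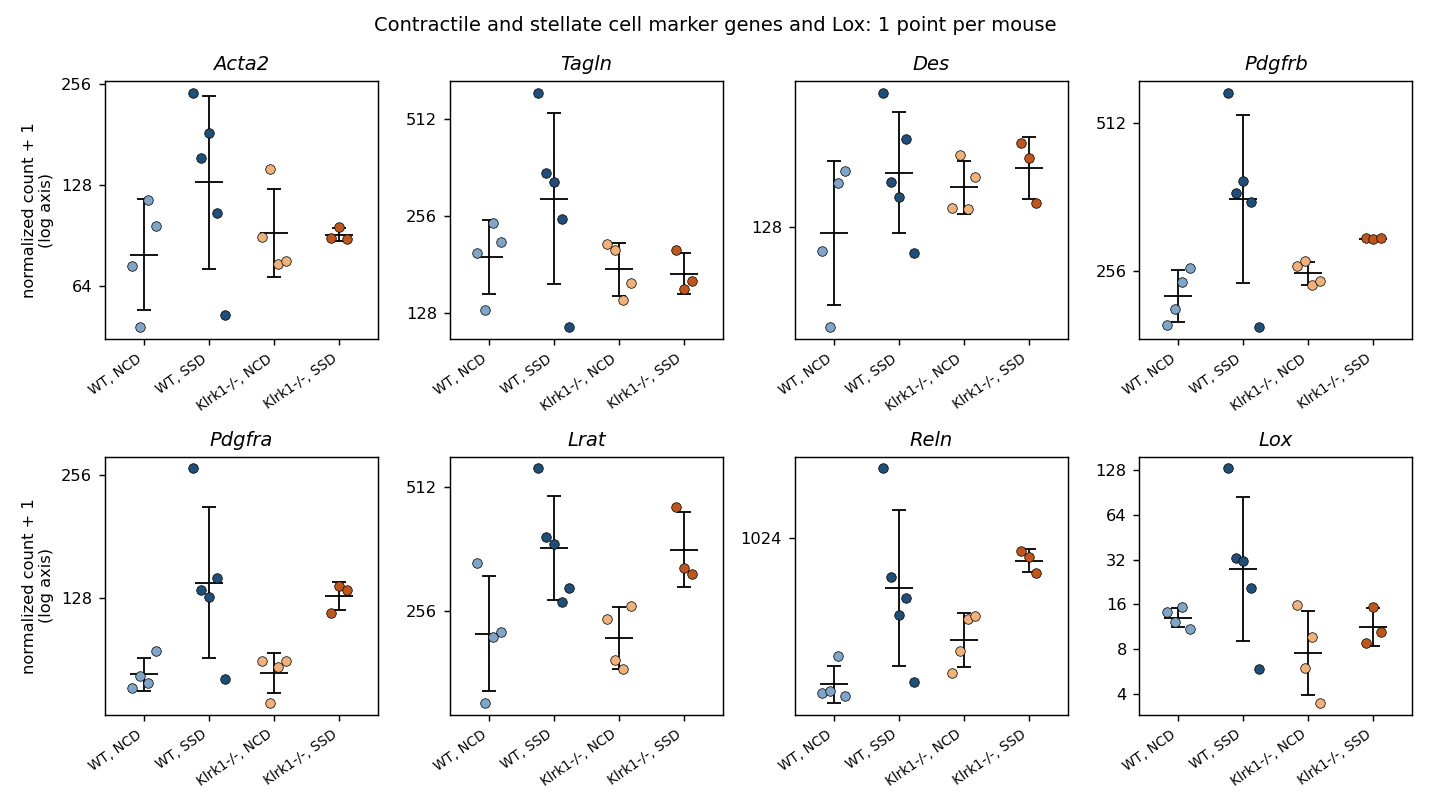
Normalized count + 1 on a log axis for 7 stellate cell genes and Lox, with 1 point per mouse and the mean and SD of the log2 values, in WT and Klrk1-/- mice on NCD and SSD. In Acta2, Tagln and Lox the lowest WT mouse on SSD, at 51.4 for Acta2, is within or below the NCD mice, while the means of Lrat and Reln are higher on SSD in both genotypes.

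Lrat and Reln, which are expressed by quiescent stellate cells, were called higher on SSD in both genotypes. In WT mice Lrat was called under 14 of 22 alternatives and Reln under 11 of 22. Lrat (ENSMUSG00000028003, chr3:82799886-82811280) encodes the enzyme that makes the retinyl esters stored by stellate cells. It was at 335, 152, 220.3 and 226 normalized counts in WT mice on NCD and 569, 386, 372, 269 and 289.8 on SSD, a log2 fold change of 0.69 ± 0.24 (SE, adjusted p = 0.0403). For Klrk1-/- mice it was at 245, 194, 184 and 263 on NCD and 459, 324 and 315 on SSD, a log2 fold change of 0.72 ± 0.16 (SE, adjusted p = 0.00698). WT mouse 1 on NCD lay within the SSD range, and the diets did not overlap in Klrk1-/- mice. Reln (ENSMUSG00000042453, chr5:22089452-22549700), reelin, a marker of stellate cells among liver cells, was at 637, 640.3, 713 and 631 on NCD and 1267, 909.9, 809, 851 and 659 on SSD in WT mice, and at 678, 724, 799.6 and 806 on NCD and 983, 965 and 919.7 on SSD in Klrk1-/- mice. It rose by 0.42 ± 0.15 (SE, adjusted p = 0.0464) in WT and 0.35 ± 0.09 (SE, adjusted p = 0.012) in Klrk1-/- mice.

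The receptors for PDGF, a mitogen of stellate cells, differed in whether they were called. Pdgfra (ENSMUSG00000029231, chr5:75312953-75358876) was at 76.0, 81.6, 78.2 and 93.8 normalized counts on NCD and 265, 133, 128, 142 and 80.0 on SSD in WT mice, and at 88.5, 69.7, 85.8 and 88.6 on NCD and 117, 136 and 133 on SSD in Klrk1-/- mice. It rose by 0.75 ± 0.26 (SE, adjusted p = 0.0438) in WT and 0.63 ± 0.14 (SE, adjusted p = 0.00691) in Klrk1-/- mice. Pdgfrb (ENSMUSG00000024620, chr18:61178222-61218133) was at 198, 213, 242 and 259 on NCD and 589, 368, 390.2, 354 and 196 on SSD in WT mice, and at 261, 268, 239 and 244 on NCD and 297, 296 and 298 on SSD in Klrk1-/- mice. Its values of 0.65 ± 0.24 (SE, adjusted p = 0.0511) and 0.24 ± 0.10 (SE, adjusted p = 0.0827) were not called, though the diets did not overlap in Klrk1-/- mice. The ligand gene Pdgfb gave 0.55 (adjusted p = 0.169) in WT mice and was not called.

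Hhipl1 (ENSMUSG00000021260, chr12:108272529-108297128), a secreted protein related to the hedgehog-binding protein Hhip, was low throughout. It was at 7.24, 7.05, 10.4 and 8.83 normalized counts in WT mice on NCD and at 21.9, 18.6, 20.9, 17.8 and 14.7 on SSD, without overlap, a log2 fold change of 1.08 ± 0.28 (SE, adjusted p = 0.0124). Klrk1-/- mice had 10.3, 11.2, 3.73 and 3.69 on NCD and 16.4, 16.1 and 15.4 on SSD, also without overlap, and the value of 1.19 ± 0.45 (SE, adjusted p = 0.0649) was not called. The genotype difference on SSD was -0.21 ± 0.25 (SE).

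Collagen genes are not among the 41 and were listed separately. Of 13 collagen genes tested, 10 were called higher on SSD in WT mice and 1 lower, with a median of 0.98. Over all genes 17.3% were called higher and 17.6% lower. The largest of the called rises were Col1a1 at 1.82 ± 0.54 (SE), Col1a2 at 1.48 ± 0.45 (SE), Col5a2 at 1.26 ± 0.43 (SE) and Col6a2 at 1.13 ± 0.39 (SE), and Col3a1 at 1.38 ± 0.51 (SE, adjusted p = 0.054) was not called. Among Klrk1-/- mice 4 of 12 were called higher, Col6a1, Col14a1, Col3a1 and Col5a1, and 1 lower, with a median of 0.46. The shares of all genes there were 13.4% higher and 16% lower. The summed level of the collagen genes was 31089, 11926, 11569, 10594 and 5176 normalized counts in WT mice 1 to 5 on SSD, against 4884 to 6132 in WT mice on NCD and 5852 to 7934 in Klrk1-/- mice on SSD. The gene called lower was Col15a1, a collagen of basement membranes, which was also lower in Klrk1-/- than in WT mice on NCD at -1.19 ± 0.13 (SE) and on SSD at -1.56 ± 0.22 (SE). It was the only collagen gene called between the genotypes, while 6.66% of all genes were called lower on NCD and 1.68% on SSD.

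While 17.3% of all genes were called higher and 17.6% lower, 10 of 17 genes of TGF-beta signalling tested in WT mice were called higher on SSD and none lower. They included the targets Ccn2 at 0.93 ± 0.33 (SE) and Smad7 at 0.92 ± 0.12 (SE), and the ligand Tgfb1 at 0.91 ± 0.20 (SE). For Klrk1-/- mice 6 of 15 were called higher, among them Smad7 at 0.97 ± 0.21 (SE), Tgfbi at 0.86 ± 0.12 (SE) and Skil at 0.81 ± 0.21 (SE). Over all genes 13.4% were called higher there. Between the genotypes on SSD, Ltbp1, which tethers latent TGF-beta to the matrix, was called lower in Klrk1-/- mice at -0.997 ± 0.21 (SE), 1 of 17, beside 1.68% of all genes. Of these 17, 14 had a value below 0 and 10 had an unadjusted p under 0.05, which 22.9% of all genes had. On NCD Skil and Tgfbr1 were called lower in Klrk1-/- mice, at -0.82 ± 0.17 (SE) and -0.39 ± 0.10 (SE), 2 of 16, beside 6.66% of all genes.

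Of 17 further stellate cell genes tested, 7 were called higher on SSD in WT mice and 4 in Klrk1-/- mice, where 1 was called lower. Over all genes 17.3% and 13.4% were called higher, and 16% lower in Klrk1-/- mice. Rgs5, a gene of pericytes and stellate cells, rose in both genotypes, at 0.87 ± 0.18 (SE) and 0.79 ± 0.11 (SE), and so did the collectin gene Colec11 and the growth factor gene Hgf. Ecm1 and Angptl6, secreted proteins, were higher in Klrk1-/- than in WT mice on both diets, Ecm1 at 0.59 ± 0.10 (SE) on NCD and 0.68 ± 0.11 (SE) on SSD. Of all genes, 6.41% were called higher on NCD and 1.22% on SSD. Adamtsl2 rose in WT mice at 0.98 ± 0.29 (SE) and was lower in Klrk1-/- mice on SSD at -1.23 ± 0.28 (SE), where 1.68% of all genes were called lower.

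Of 29 other matrix and protease genes tested in WT mice, 10 were called higher on SSD and 3 lower, beside 17.3% and 17.6% of all genes. Highest were Vcan (versican) at 2.06 ± 0.68 (SE), Mfap2 at 1.86 ± 0.63 (SE), Tnc (tenascin) at 1.44 ± 0.48 (SE) and Adamts1 at 1.31 ± 0.22 (SE). Vcan and Mfap2 had a mean of 3.39 and 3.36 on NCD and passed the minimum through the mice on SSD, where they are high. Among Klrk1-/- mice 9 of 27 were called higher and 2 lower, beside 13.4% and 16% of all genes. Loxl4, another lysyl oxidase relative, was called lower on SSD in Klrk1-/- mice at -2.38 ± 0.21 (SE), was higher in Klrk1-/- than WT mice on NCD at 1.49 ± 0.20 (SE), and was the only gene of this list called in the interaction, at -1.53 ± 0.32 (SE). Over all genes 6.41% were called higher on NCD and 0.559% lower in the interaction.

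Markers of other cells were listed as well. For the diet, 17.3% of all genes were called higher and 17.6% lower in WT mice, and 13.4% and 16% in Klrk1-/- mice. Of 10 endothelial markers, 7 were called higher on SSD in WT mice and 3 in Klrk1-/- mice, and their sums were 4501 to 6885 normalized counts in WT mice on NCD and 6736 to 8241 on SSD, with 5845 to 6627 and 6669 to 7965 in Klrk1-/- mice. Of 5 vascular smooth muscle markers tested, Smtn was called higher in WT mice and Mylk lower in Klrk1-/- mice, with sums of 1875 to 2784 on NCD and 2152 to 2517 on SSD in WT mice, and 2886 to 3146 and 2283 to 2836 in Klrk1-/- mice. Of 10 portal fibroblast and mesothelial markers tested, 3 were called higher on SSD in WT mice and 2 of 9 in Klrk1-/- mice. Upk3b was called lower in Klrk1-/- than in WT mice on SSD, as were 1.68% of all genes. The sums in WT mice were 1518 to 2067 on NCD and 1746 to 3022 on SSD, while Klrk1-/- mice had 1446 to 1599 and 1578 to 1998. Of 16 macrophage markers, 10 were called higher in WT mice and 6 in Klrk1-/- mice, with the highest fold for Gpnmb at 5.02 ± 0.61 (SE) and 2.63 ± 0.54 (SE), a gene with a mean of 7.43 and 4.56 on NCD that passed the minimum through the mice on SSD. Cholangiocyte markers had 1 of 7 called lower in WT and 1 higher in Klrk1-/- mice, neutrophil markers none of 3 tested with Ly6g at 0 throughout, and T and NK cell markers 1 higher and 1 lower of 5 in WT mice. The part of these cells in the members' differences was not tested.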

How the data were processed

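Liver RNA of 16 mice was sequenced as 1 library per mouse, with single reads. The authors aligned reads to GRCm39 with STAR, counted them per gene with FeatureCounts on GENCODE and deposited normalized counts, a signal in which each count is divided by 1 factor per mouse. How the factors were made, and whether strand was used, is not given in the sources used here, and DESeq2 is named in the submitters' processing notes. The labels name an mRNA kit and the methods a total RNA kit. Gene length was also deposited by the authors and is used for levels per kilobase.

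Values were tested on the log2(normalized count + 1) scale with limma 3.58.1 in R 4.3.3 (trend, two-sided) over genes with a mean of at least 10 in the mice compared, with Benjamini-Hochberg adjustment over all genes tested and a threshold of 0.05. Only the mice of the groups compared entered a fit, and all 16 entered the interaction. The 1 added to each count makes this scale understate fold changes of low genes. Groups came from the labels. Values are whole multiples of 1 step per mouse within 0.1 of a read (100% of values), which gave 19892025 to 28936707 reads per mouse, and edgeR 4.0.16 and DESeq2 1.42.0 were run on these reads as alternatives. Other alternatives were pseudocounts of 0.5 and 10, no minimum mean or one of 50, other scalings, a fold limit of 1.5 or 2, robust variances, a replicate block, 1 model for all groups, and leaving out each mouse. Leaving out both WT mice 1 and 5 on SSD, and fitting the mice with shared numbers without a block, were added after the data were seen. Replicates of a group differed by more than counting noise, and p-values measure the spread between these mice. Code was tested on simulated data.

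The members and gene lists were chosen with earlier results of these data known. Values per mouse are given for members called in any comparison and for Acta2, Lox, Hhipl1 and the stellate cell markers Des, Pdgfra, Pdgfrb, Lrat and Reln, and other genes by counts with up to 4 examples of the largest change. Some genes of these lists are counted but not reported by name here. Promoter sequences are from RefSeq (GRCm38.p6), with entries for 28 of the 41 members, and were placed on GRCm39 by exact match.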

Additional observations from a re-analysis of the deposited data

Results flagged for a closer look

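Of 123 sets of values examined, each 1 member in 1 group of 4 or 5 mice, 13 held a mouse far from the others. Chance flags about 1 in 20 sets if they are independent and normally distributed. These sets share the same mice and the counts were not log-transformed, so the 13 cannot be set against that rate. WT mouse 1 on SSD accounted for 9 of the 13, as the highest of its group. It stood at 130.9 normalized counts for Lox, 98.3 for Plod2, 167.4 for Timp1, 1060.2 for Mmp12, 742 for Adamts2, 275 for Fbn1, 865.6 for Lum, 6582 for Sparc and 1488 for Nid1. WT mouse 5 on SSD was far below its group for S100a6, at 30.2. On NCD, Klrk1-/- mouse 2 was low for Pdgfra at 69.7, Klrk1-/- mouse 3 was low for Bgn at 2017, and WT mouse 3 was high for Reln at 713.

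The response of Mmp12 to SSD differed between the genotypes by the interaction term, at -3.52 on the log2 scale. It was called under 16 of 27 alternatives and missed the threshold under the other 11, with edgeR, with no minimum mean and without 1 of 9 mice, at an adjusted p of up to 0.167 by limma or edgeR.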

How the results depend on the processing

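No member changed sign under an alternative in a comparison in which the main fit called it. Of the members tested, 3 of 40 for the diet in WT mice, 7 of 37 for the diet in Klrk1-/- mice, 11 of 40 for the genotypes on SSD, 12 of 35 for the genotypes on NCD and 11 of 40 for the interaction changed sign under at least 1 alternative. Among these, Plod1 for the diet in WT mice was the only one called under such an alternative, at 0.333 with every mouse scaled to the same total. It was 0.108 with quantile normalization, 0.00729 without both WT mice 1 and 5 on SSD and -0.0593 to 0.0353 without 1 mouse. Acta2 for the diet in Klrk1-/- mice was 0.235 with every mouse scaled to the same total, and -0.12 to 0.19 without 1 mouse. Acta2 for the genotypes on NCD was -0.0237 to 0.396 without 1 mouse. Hhipl1 for the genotypes on SSD was 0.0919 with quantile normalization. The interaction of Hhipl1 was -0.0229 with a pseudocount of 10, -0.0331 with edgeR, -0.0457 with DESeq2, -0.103 with the replicate block and -0.11 to 0.35 without 1 mouse, and that of Lox was -1.08 (without WT mouse 5 on SSD) to 0.0433 (without WT mouse 1 on SSD). The median of the members for the genotypes on NCD turned from -0.06 to 0.04 without WT mouse 3 and to 0.01 without Klrk1-/- mouse 3. With every mouse scaled to the same total, which moves the median of all genes to 0.344 for the diet in WT mice, 0.254 for the diet in Klrk1-/- mice and -0.115 for the genotypes on SSD, the members called were 36, 26 and 3, beside 53.7%, 43.6% and 3.57% of all genes. DESeq2 called 28 for the diet in WT mice and 3 for the genotypes on SSD, beside 37.7% and 9.3% of all genes. With 1 model for all 4 groups, 8 were called for the diet in Klrk1-/- mice and 4 for the genotypes on SSD, beside 24% and 7.26%. A fold over 2 left 3 for the diet in Klrk1-/- mice and 0 for the genotypes on NCD, where a fold over 1.5 left 3. These limits left 5.46%, 1.7% and 5.79% of all genes. The interaction gave 0 with edgeR and 0 with no minimum mean, where 5 and 4 members had an unadjusted p under 0.05. In the main fit of the interaction, 17.3% of all genes tested had such a p. Without both WT mice 1 and 5 on SSD, chosen after seeing the data, 30 members were called for the diet in WT mice, 12 for the genotypes on SSD and 2 for the interaction, beside 30.8%, 6.44% and 1.25%. Leaving out 1 mouse gave 11 to 32 for the diet in WT mice, 12 to 18 for the diet in Klrk1-/- mice, 0 to 3 for the genotypes on SSD, 2 to 6 for the genotypes on NCD and 0 to 1 for the interaction. In the same order, these fits called 27.5% to 34.2%, 18.6% to 28.4%, 0.342% to 5.49%, 5.59% to 17.1% and 0.283% to 1.43% of all genes. The cause was not tested.

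The fits between groups with the replicate number as a block hold only mice whose number occurs in both groups. With the block, 11 members were called for the genotypes on SSD, where WT mice 4 and 5 were left out, and 5 were called in the same mice without the block, a fit added after seeing the data. The shares of all genes called were 5.41% and 3.61%. The block gave 13, 18, 5 and 1 for the diet in WT mice, the diet in Klrk1-/- mice, the genotypes on NCD and the interaction. Of all genes, 22.7%, 24.9%, 18.4% and 0.321% were called in these fits. Deviations of mice with the same number correlated at -0.13 to -0.04, -0.02 to 0.13, -0.03 to 0.25 and -0.10 to 0.08 for the diet in WT mice, the diet in Klrk1-/- mice, the genotypes on SSD and the genotypes on NCD, and 0 of 8, 4 of 6, 5 of 6 and 3 of 6 mice correlated best with their own number. The labels do not say that a number marks related mice and not every pair was over 0.1, so the mice were not treated as paired, though for the genotypes on SSD the correlations give a hint of it. Genes such as Mmp13, Timp1 and Lox rest on few reads in mice on NCD, which limits the precision of their folds.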
